A study of Mus musculus with 28 samples.

Results

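Mouse cells carrying a K36M histone H3 and sampled at d2 of reprogramming were compared with WT cells sampled at d6, over all genes. The pair was picked from measured values, because both groups stood at a similar summed distance between WT fibroblasts and WT induced pluripotent stem cells (iPSCs). It holds 4 of the 28 libraries of the series, 2 in K36M d2 and 2 in WT d6, and 16932 of 37620 listed genes had enough counts to be tested. Both groups came from mouse embryonic fibroblasts that were being turned into iPSCs by the 4 factors OKSM (Oct4, Klf4, Sox2, Myc) in a medium called AGi, and poly(A) RNA was sequenced. K36M is a lysine-to-methionine change in the tail of histone H3, and library names give H3.3 as the histone of the WT cells. The labels do not say how the histone or the factors were brought in, which promoter drives them, or from how many embryos or clones the cells came. WT libraries from d0, d2, d4, d8 and iPSCs, 2 each, set the course against which both groups are read, and K36M libraries of the other stages are quoted where they bear on a gene. The d0 fibroblasts grew in DMEM with serum and the iPSCs in a medium called S/L. The 2 groups differ in genotype and in day, and in this contrast genotype and day cannot be told apart. The level in WT d2, the WT cells of the same day as K36M d2, is therefore given beside many genes.

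Reprogramming takes fibroblasts through a loss of mesenchymal and contractile genes, a gain of epithelial genes such as E-cadherin, and a late activation of the pluripotency network around Nanog. Methylation of histone H3 at lysine 36 is laid down over transcribed genes by SETD2 and over wider regions by the NSD enzymes, and a K36M histone is known to inhibit these enzymes. A cell population part of the way along this course can hold few cells that have gone far or many that have gone a short way. In bulk RNA, fewer cells of a type and less RNA per cell cannot be told apart, and this holds for every level below.

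Total gene counts ran from 17538608 to 20837454 in the 4 libraries and from 17507521 to 35622279 over all 28. The log2 CPM values of the 2 libraries of a group correlated across genes with 0.994 in K36M d2 and 0.994 in WT d6. CPM are gene counts scaled to library size with TMM factors. Nothing in the labels tells whether the 2 replicates of a group are separate cultures, so every p-value rests on a spread that may be technical only. The 2 K36M d6 libraries stood apart from each other (score 82.7 ± 3.23), and they enter the common fit. H3f3a, a gene for histone H3.3, had 169 and 151 CPM in K36M d2, against 212 and 218 CPM in WT d6, a log2 fold change of -0.43 ± 0.11 (adjusted p = 0.00288 by edgeR); without K36M d2 replicate 2 it was -0.35 and did not pass. H3f3b, the other H3.3 gene, had 392 and 387 CPM in K36M d2, against 342 and 366 CPM in WT d6, and did not pass (adjusted p = 0.19 by edgeR). A gene count cannot tell a K36M from a WT sequence, so neither gene checks the genotype labels.

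A score placed each library between the WT d0 libraries, set to 0, and the WT iPSC libraries, set to 100. It is built on genes that differ at least 4-fold between those end points, 3018 risen and 2328 fallen ones, and it was used to choose the pair, so it is described and not tested. K36M d2 libraries stood at 42.1 and 42.1 and WT d6 libraries at 41.1 and 39.4. The means were 42.1 ± 0.0264 in K36M d2 and 40.2 ± 1.20 in WT d6 (± SD, n = 2 each). The same sum was made up differently. On the risen genes K36M d2 stood at 31.5 ± 0.0744 and WT d6 at 33.9 ± 1.60, and on the fallen genes K36M d2 stood at 54.5 ± 0.0300 and WT d6 at 47.7 ± 0.729. K36M d2 thus stood 2.33 points behind WT d6 on the risen genes and 6.77 points ahead of it on the fallen genes. These gaps are between positions and not between changes since d0. K36M d0 already stood at 4.81 ± 0.00780 on the risen and 4.60 ± 0.256 on the fallen genes, where WT d0 is 0. The position on the fallen genes was past that of WT d8, at 52.7 ± 0.642, although WT d8 had reached 48.1 ± 0.464 on the risen genes. With 1 library of the pair left out at a time, the gap on the fallen genes ran from 6.25 to 7.28. On the risen genes it was -1.20 without WT d6 replicate 1, -3.46 without WT d6 replicate 2, and -1.47 with a prior count of 0.5 in place of 2.

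**Figure D1:**
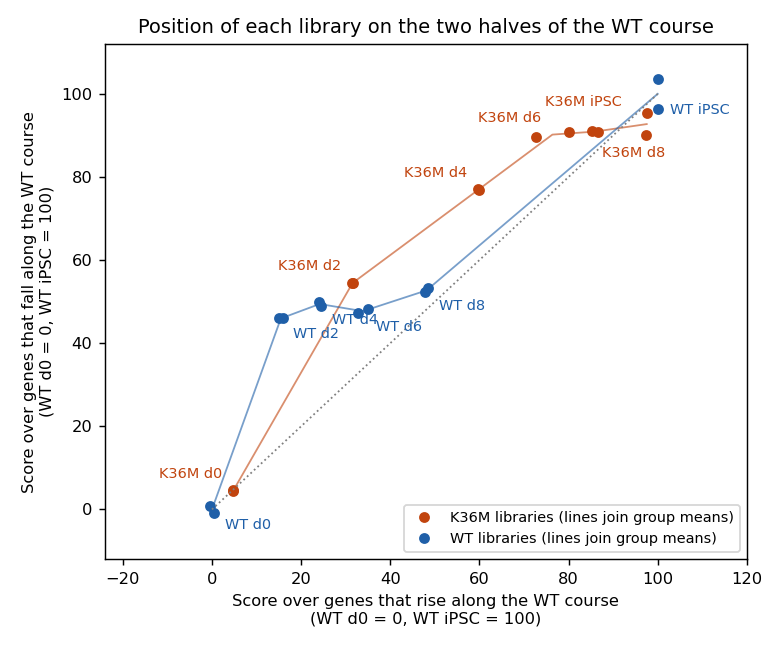
Score of each library over genes that rise (horizontal axis) and genes that fall (vertical axis) along the WT course, where WT d0 is 0 and WT iPSC is 100; K36M libraries are red, WT libraries blue, and lines join group means. K36M d2 lies at 31.5 and 54.5, to the left of and above WT d6 at 33.9 and 47.7, and the dotted line marks equal scores.

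Gene by gene the 2 groups differed widely. In edgeR's quasi-likelihood test over all genes, 7479 of 16932 (44.2%) had a Benjamini-Hochberg adjusted p below 0.05, 3520 (20.8%) higher and 3959 (23.4%) lower in K36M d2 than in WT d6. Tested against 2-fold instead of no change, 1292 genes (7.63%) passed, of which 421 (2.49%) were higher and 871 (5.14%) were lower. The 95% interval of the difference lay within 2-fold for 9494 genes (56.1%). In 12756 genes (75.3%) the 2 groups of libraries did not overlap, so a lack of overlap sets a gene named below little apart. Counts of list members below are to be read beside the 20.8% higher and 23.4% lower over all genes. Against WT d2, with the same K36M d2 libraries, 3405 genes (20.1%) differed; against WT d4 the number was 6865 (40.5%) and against WT d8 it was 8073 (47.7%). WT d6 differed from WT d2 in 6936 genes (41.0%). These comparisons share libraries with one another.

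Each class of the WT course held genes that differed in both directions: 36.2% of risen, 52.1% of fallen and 44.6% of other genes passed. The interval lay within 2-fold for 23.2% of risen, 41.2% of fallen and 67.6% of other genes. These shares were not tested against each other. Of the 3018 risen genes 503 were higher and 590 lower in K36M d2, with a median log2 fold change of 0. Of the 2328 fallen genes 425 were higher and 789 lower, with a median of -0.18, and of the other 11586 genes 2592 were higher and 2580 lower, with a median of 0.01. Over all tested genes the median was 0. The balance between the first 2 classes follows from the choice of the pair. Of the 7479 genes that differed, 2420 (32.4%) had a K36M d2 mean within the range of the WT d2, d4, d6 and d8 means, 2359 (31.5%) stood above that range and 2700 (36.1%) below it. Over all tested genes 8682 (51.3%) lay within it.

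**Figure D2:**
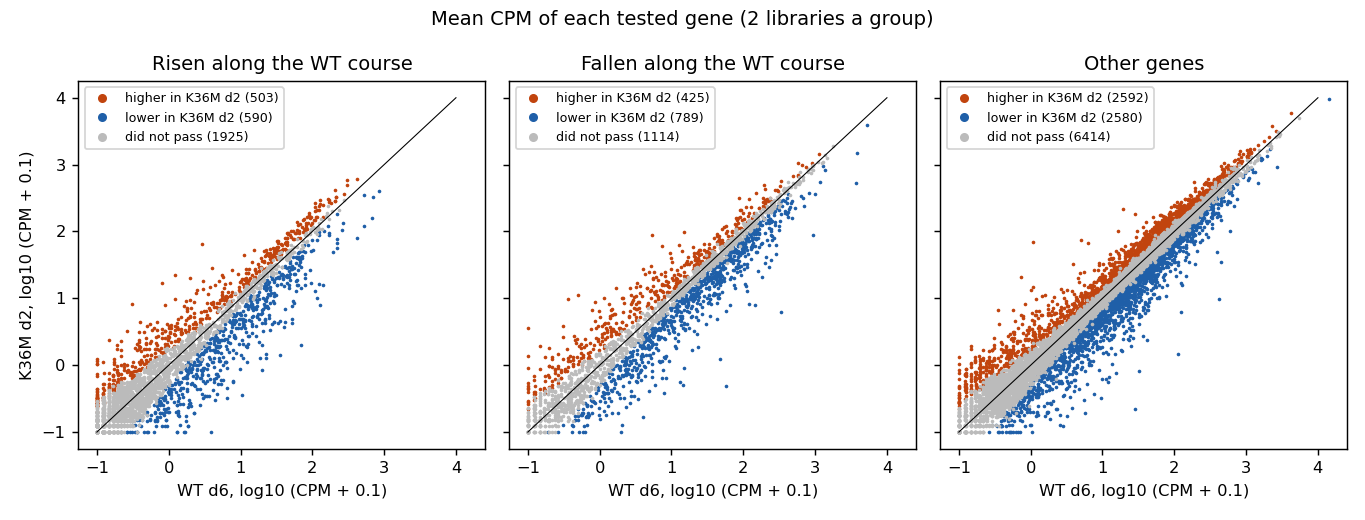
Mean CPM of each tested gene in K36M d2 (vertical axis) against WT d6 (horizontal axis), both as log10 (CPM + 0.1), for genes that rise along the WT course, genes that fall and all others. Red genes were higher in K36M d2 (503, 425 and 2592), blue genes lower (590, 789 and 2580), and grey genes did not pass.

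Of the 4 factor genes 3 were slightly higher in K36M d2, against 20.8% of all genes. Pou5f1, which codes for Oct4, had 253 and 289 CPM in K36M d2, against 200.2 and 159 CPM in WT d6, and its log2 fold change was 0.59 ± 0.18 (adjusted p = 0.012 by edgeR). Sox2 had 156 and 177 CPM in K36M d2, against 129 and 100.2 CPM in WT d6, with 0.54 ± 0.17 (adjusted p = 0.0139 by edgeR), and Klf4 had 266 and 302 CPM in K36M d2, against 229 and 181 CPM in WT d6, with 0.47 ± 0.13 (adjusted p = 0.00494 by edgeR). The groups did not overlap for these 3 genes, as was the case for 75.3% of all tested genes. All 3 lost their call without K36M d2 replicate 2 (0.50, 0.44 and 0.38) and without WT d6 replicate 2 (0.44, 0.37 and 0.31). Myc had 310.4 and 320.4 CPM in K36M d2, against 259 and 217 CPM in WT d6, and did not pass (adjusted p = 0.106 by edgeR). Counts do not tell transgene from endogenous reads. Against WT d2 none of the 4 passed in the edgeR test, and Pou5f1 averaged 271 ± 25.1 CPM in K36M d2 and 277 ± 15.7 CPM in WT d2. All 4 were lower in WT d6 than in WT d2.

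Epithelial junction genes were mostly lower in K36M d2. Of 22 tested members 15 were lower and 3 higher, with a median log2 fold change of -1.55, while 23.4% of all genes were lower. Cdh1, which codes for E-cadherin, had 8.56 and 7.32 CPM in K36M d2, against 142 and 117 CPM in WT d6, a log2 fold change of -4.02 ± 0.18 (adjusted p = 7.57e-14 by edgeR). Epcam, an adhesion molecule of epithelial cells, had 5.24 and 4.28 CPM in K36M d2, against 54.6 and 51 CPM in WT d6, with -3.46 ± 0.12 (adjusted p = 1.21e-15 by edgeR). In both genes every K36M d2 library lay far below every WT d6 library. WT d2 was lower still, at 0.416 ± 0.0112 CPM for Cdh1 and 0.593 ± 0.0883 CPM for Epcam.

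Other members of the list lay apart as well. Ap1m2, a subunit of the sorting complex of epithelial cells, had 0.230 and 0.217 CPM in K36M d2, against 6.75 and 5.82 CPM in WT d6, with -4.78 ± 0.27 (adjusted p = 2.49e-11 by edgeR). Cldn7, a claudin of tight junctions, had 0.552 and 0.434 CPM in K36M d2, against 5.97 and 5.20 CPM in WT d6, with -3.48 ± 0.28 (adjusted p = 8.54e-10 by edgeR); against WT d4 its value was 0.83. Marveld3, another tight junction protein, had 0.230 and 0.271 CPM in K36M d2, against 3.12 and 3.03 CPM in WT d6, with -3.60 ± 0.33 (adjusted p = 3.27e-08 by edgeR). The WT d6 libraries were above both K36M d2 libraries in all 3 genes. The 3 members that were higher in K36M d2 are named after their values were seen. Marveld2, tricellulin, averaged 7.52 ± 0.0999 CPM in K36M d2 and 1.53 ± 0.283 CPM in WT d6 (mean ± SD, n = 2 each), with a log2 fold change of 2.29 ± 0.24 (adjusted p = 4.61e-08 by edgeR). Pvrl4, a nectin, averaged 6.40 ± 0.840 CPM in K36M d2 and 1.71 ± 0.177 CPM in WT d6, with 1.90 ± 0.19 (adjusted p = 1.91e-08 by edgeR), and Pkp2, a desmosomal plakophilin, 116 ± 4.50 CPM in K36M d2 and 91 ± 6.60 CPM in WT d6, with 0.35 ± 0.09 (adjusted p = 0.00388 by edgeR). The summed level of the list was 383 to 394 CPM in K36M d2 and 725 to 802 CPM in WT d6. Against WT d2, 16 members were higher and 1 lower in K36M d2. Against WT d4, 8 were higher and 5 lower, the other way from the pair; against WT d8, 1 was higher and 19 lower. These counts use the same K36M d2 libraries.

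The promoter of Epcam is shown because the 2 groups lay far apart at this gene and its promoter holds the E-box CACCTG, a motif that Snail and Zeb repressors are known to bind at epithelial genes. The 250 bases before its RefSeq start lie at chr17:87635729-87635978 of GRCm38.p6, on the plus strand. Capitals mark CACCTG or its reverse complement.
Epcam: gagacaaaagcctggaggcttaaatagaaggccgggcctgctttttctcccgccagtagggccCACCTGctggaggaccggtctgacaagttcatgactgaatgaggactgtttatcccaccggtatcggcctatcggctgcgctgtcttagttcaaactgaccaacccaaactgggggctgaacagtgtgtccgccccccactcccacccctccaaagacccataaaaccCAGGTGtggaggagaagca
Of the 22 junction genes 15 were found in the promoter table, and 8 of these (53.3%) held CACCTG on either strand within 250 bases before the start, against 17.1% of all 27025 promoters. Among epithelial regulators 2 of 6 (33.3%) did. A match is a description of the letters and not a site in use.

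Epithelial regulators were also lower in most members. Of 15 tested members 9 were lower and 2 higher in K36M d2, with a median of -1.18. Ehf, an epithelial Ets factor, had 2.21 and 2.33 CPM in K36M d2, against 39.7 and 43.4 CPM in WT d6, with a log2 fold change of -4.19 ± 0.34 (adjusted p = 3.3e-08 by edgeR). Tfap2c, a factor of trophoblast, epithelium and germ cells, had 1.15 and 1.25 CPM in K36M d2, against 12.4 and 9.34 CPM in WT d6, with -3.18 ± 0.25 (adjusted p = 1.29e-09 by edgeR); against WT d4 the value was 0.037. Every WT d6 library was above both K36M d2 libraries in these genes. Trp63, the p63 gene of stratified epithelia, had no count in either K36M d2 library and 0.276 and 0.578 CPM in WT d6 (adjusted p = 0.00363 by edgeR). Zfp750, a regulator of epidermal differentiation, averaged 20.6 ± 2.82 CPM in K36M d2 and 5.64 ± 1.51 CPM in WT d6 and was higher in K36M d2 than in all 12 WT libraries of the course, with 1.86 ± 0.16 (adjusted p = 3.82e-09 by edgeR). Esrp2, an epithelial splicing regulator, was the other that was higher, with 0.57 ± 0.16 (adjusted p = 0.00502 by edgeR).

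Proteases, their inhibitors and keratins did not follow the junction genes in every member. Of 10 epithelial proteases and inhibitors 4 were lower and 1 higher. Wfdc2, a secreted epithelial protein, had 15.6 and 12.3 CPM in K36M d2, against 48.3 and 47.6 CPM in WT d6, with a log2 fold change of -1.78 ± 0.19 (adjusted p = 6.18e-08 by edgeR), and Spint1, an inhibitor of membrane proteases, had 4.28 and 4.28 CPM in K36M d2, against 31.5 and 27 CPM in WT d6, with -2.77 ± 0.15 (adjusted p = 8.61e-13 by edgeR). Klk10, a kallikrein, was the member that was higher, with 4.92 and 4.34 CPM in K36M d2, against 1.06 and 0.818 CPM in WT d6 and 2.30 ± 0.24 (adjusted p = 4.48e-08 by edgeR). Of 10 keratins 5 were higher (3 without WT d6 replicate 1 or replicate 2) and 1 lower, with a median of 0.98. Krt7, a keratin of simple epithelia, had 3.04 and 2.93 CPM in K36M d2, against 0.827 and 0.578 CPM in WT d6, with 2.07 ± 0.30 (adjusted p = 5.63e-06 by edgeR), and Krt14, of basal cells, had 2.58 and 1.84 CPM in K36M d2, against 0.505 and 0.578 CPM in WT d6, with 2.03 ± 0.38 (adjusted p = 0.000147 by edgeR); against WT d8 Krt14 was at -0.83. Krt18, a partner keratin of simple epithelia, was lower, at 17.2 ± 0.465 CPM in K36M d2 and 29.7 ± 2.29 CPM in WT d6, with -0.79 ± 0.14 (adjusted p = 5.79e-05 by edgeR). Against WT d8 0 keratins were higher and 5 lower. Reads of keratins and kallikreins can be shared among related copies.

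Many pluripotency genes were lower in K36M d2, and a few were higher. Of 31 tested, 15 were lower and 4 higher in K36M d2, with a median log2 fold change of -1.22. Nanog, a core pluripotency factor, had 0.184 and 0.325 CPM in K36M d2, against 10.4 and 10.6 CPM in WT d6, a log2 fold change of -5.36 ± 0.23 (adjusted p = 2.79e-14 by edgeR). Tdgf1, the Nodal co-receptor Cripto, had 0.322 and 0.217 CPM in K36M d2, against 5.47 and 3.66 CPM in WT d6, with -4.04 ± 0.55 (adjusted p = 4.58e-06 by edgeR); against WT d4 it was 0.60. Tdh, the threonine dehydrogenase of mouse pluripotent cells, had 0.184 and 0.217 CPM in K36M d2, against 4.18 and 4.48 CPM in WT d6, with -4.40 ± 0.30 (adjusted p = 9.78e-10 by edgeR). The groups lay far apart in all 3. In WT d2 Nanog averaged 0.159 ± 0.00641 CPM.

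Other genes of the pluripotent state lay close in the 2 groups. Fgf4, a growth factor of pluripotent cells, had 39.3 and 38.6 CPM in K36M d2, against 41.9 and 42.8 CPM in WT d6, and its log2 fold change of -0.12 ± 0.11 did not pass (adjusted p = 0.392 by edgeR), with a 95% interval from -0.34 to 0.10. Fut9, the enzyme that makes the stage antigen SSEA-1, had 16.9 and 19.5 CPM in K36M d2, against 18.2 and 22.1 CPM in WT d6, and -0.15 ± 0.25 did not pass (adjusted p = 0.676 by edgeR). Both were named for a difference whose interval lies within 2-fold and a large WT rise, so the likeness is part of the choice. Members that were higher in K36M d2 are named after their values were seen. L1td1, an RNA-binding protein, averaged 600.1 ± 2.07 CPM in K36M d2 and 417 ± 13 CPM in WT d6, with 0.52 ± 0.11 (adjusted p = 0.000558 by edgeR). Zfp42 (Rex1) averaged 0.583 ± 0.173 CPM in K36M d2 and 0.0700 ± 0.0309 CPM in WT d6 and Dppa2 0.501 ± 0.0582 CPM in K36M d2 and 0.0700 ± 0.0309 CPM in WT d6, so both rested on few counts (adjusted p = 0.0212 by edgeR for Zfp42, adjusted p = 0.00376 by edgeR for Dppa2). The summed level of the list went the other way from its median, with 714 to 717 CPM in K36M d2 and 591 to 593 CPM in WT d6, and L1td1 made up most of it in both groups. Against WT d2, 17 members were higher and 1 lower in K36M d2. Against WT d4, 12 were higher and 3 lower, again the other way from the pair; against WT d8, 1 was higher and 27 lower.

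Surface markers that are used to follow reprogramming were lower in 6 and higher in 3 of 12 tested members, with a median of -0.28. The shares over all genes were 23.4% lower and 20.8% higher. Thy1, lost by fibroblasts early, had 94.8 and 89.2 CPM in K36M d2, against 115 and 129.5 CPM in WT d6, with a log2 fold change of -0.41 ± 0.14 (adjusted p = 0.0213 by edgeR); it did not pass with any of 3 libraries left out (K36M d2 replicate 1, replicate 2 or WT d6 replicate 2; -0.45, -0.37 and -0.32). Ly6a (Sca-1) had 105 and 98.8 CPM in K36M d2, against 566 and 637 CPM in WT d6, with -2.56 ± 0.14 (adjusted p = 1.06e-12 by edgeR), and Kit had 0.966 and 0.542 CPM in K36M d2, against 6.48 and 3.80 CPM in WT d6, with -2.74 ± 0.34 (adjusted p = 8.94e-07 by edgeR). Alpl, alkaline phosphatase, had 4.46 and 5.10 CPM in K36M d2, against 19.1 and 17.1 CPM in WT d6, with -1.92 ± 0.26 (adjusted p = 3.86e-06 by edgeR). Ly6a, Kit and Alpl were higher in both WT d6 libraries than in both K36M d2 libraries. Members higher in K36M d2, named after their values were seen, were Itgb3 (CD61), with 17.2 ± 1.43 CPM in K36M d2 and 8.96 ± 0.903 CPM in WT d6 and 0.93 ± 0.14 (adjusted p = 5.89e-06 by edgeR), Ceacam1, with 0.54 ± 0.16 (adjusted p = 0.00934 by edgeR), and Pecam1, with 1.70 ± 0.60 (adjusted p = 0.0248 by edgeR); Pecam1 did not pass without K36M d2 replicate 1 (1.5) or WT d6 replicate 1 (1.09), and was 2.69 without WT d6 replicate 2.

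**Figure D3:**
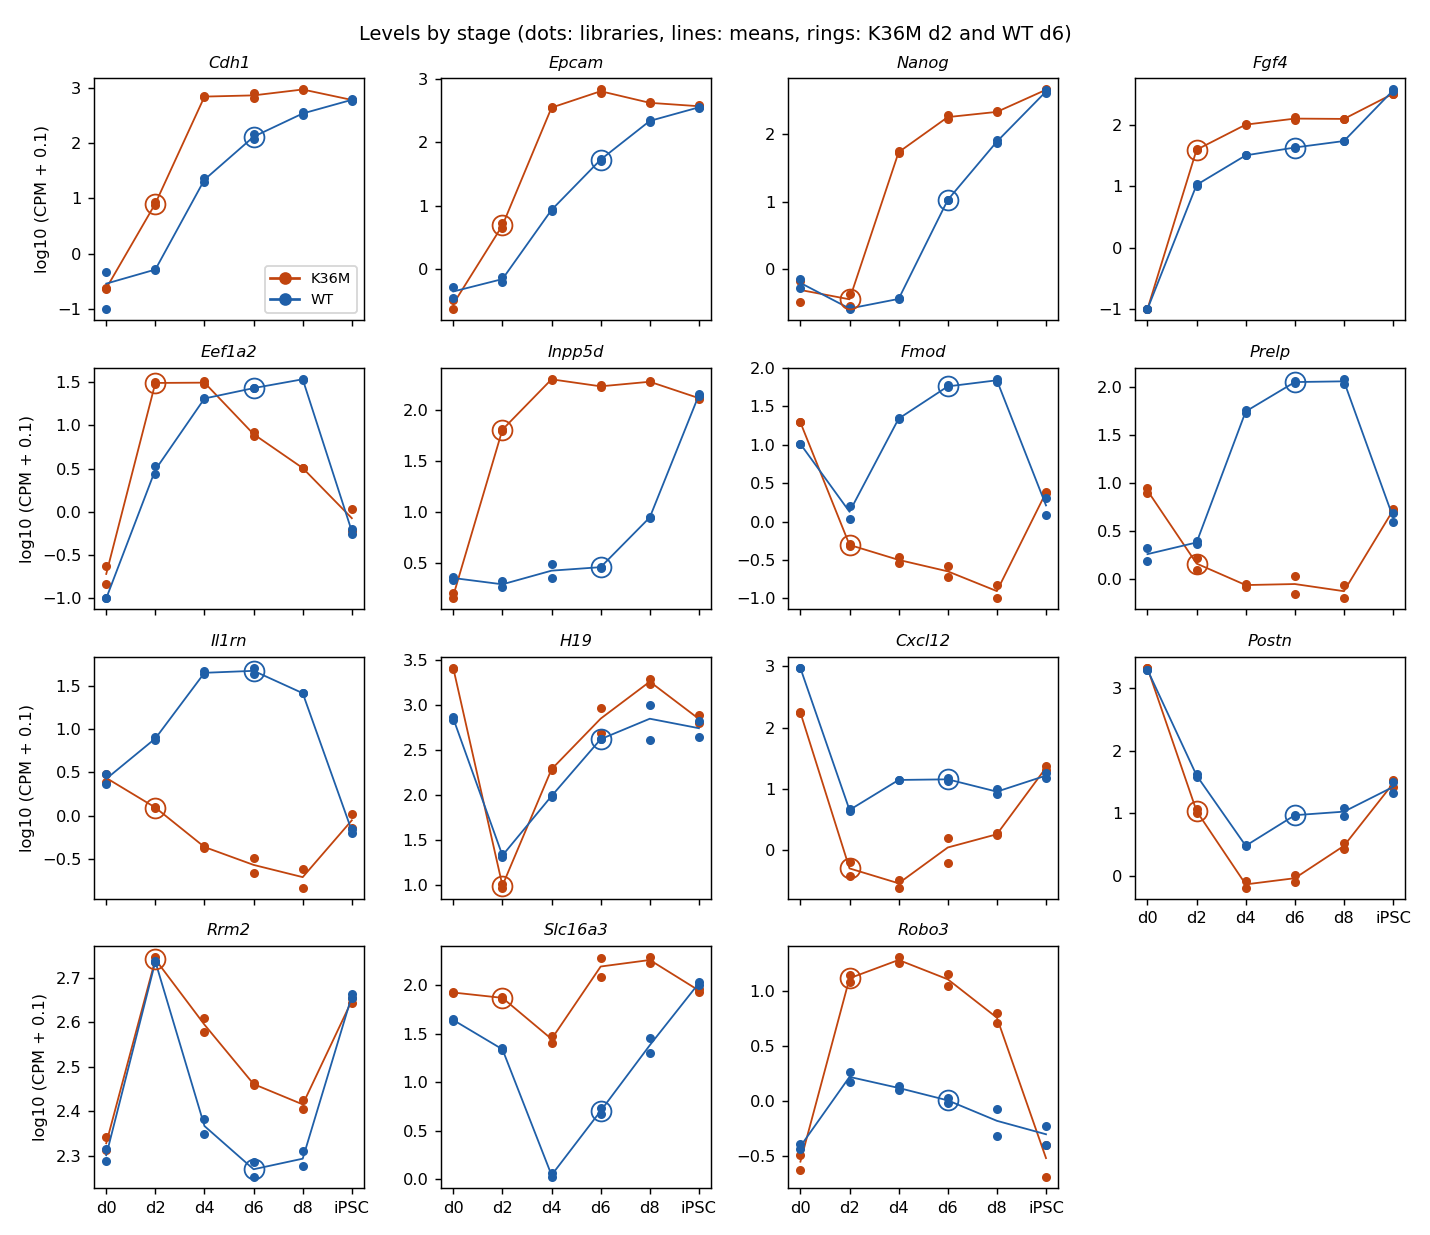
Level of 15 named genes by stage (horizontal axis, d0 to iPSC) as log10 (CPM + 0.1), with K36M in red and WT in blue; dots are libraries, lines join means, and rings mark K36M d2 and WT d6. The rings are far apart for Cdh1, Nanog, Fmod and Prelp. They are close for Fgf4, Eef1a2 and Postn, which were chosen for a difference whose interval lies within 2-fold.

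Fibroblast matrix genes went both ways, as all tested genes did, with 23.4% of those lower and 20.8% higher. Of 30 tested members 13 were lower and 8 higher in K36M d2 (5 higher without K36M d2 replicate 2), with a median log2 fold change of -0.27. Fmod, the proteoglycan fibromodulin, had 0.414 and 0.380 CPM in K36M d2, against 59.3 and 56 CPM in WT d6, a log2 fold change of -7.16 ± 0.26 (adjusted p = 1.24e-15 by edgeR). Prelp, another leucine-rich matrix proteoglycan, had 1.56 and 1.14 CPM in K36M d2, against 114 and 109 CPM in WT d6, with -6.34 ± 0.17 (adjusted p = 9.7e-18 by edgeR). Both WT d6 libraries were high and both K36M d2 libraries low in these genes. In WT, Prelp was high at d4, d6 and d8 and low at d0, at d2 and in iPSCs: it averaged 1.72 ± 0.382 CPM at d0, 2.30 ± 0.149 CPM at d2, 55 ± 2.48 CPM at d4, 113 ± 10.3 CPM at d8 and 4.28 ± 0.673 CPM in iPSCs. In K36M it averaged 0.768 ± 0.0426 CPM at d4 and 0.650 ± 0.166 CPM at d8. Fmod lies on chromosome 1 from 135933831 to 135944854 of mm9 and Prelp on chromosome 1 from 135806881 to 135817991, so the 2 genes are neighbours on 1 chromosome.

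Collagens and receptors of the list went both ways. Col1a1, the main fibrillar collagen gene, had 199 and 192 CPM in K36M d2, against 441 and 389 CPM in WT d6, with a log2 fold change of -1.08 ± 0.21 (adjusted p = 0.000186 by edgeR), and both K36M d2 libraries were below all 12 WT libraries of the course. Among members named after their values were seen, Col3a1, another fibrillar collagen, averaged 301 ± 10.2 CPM in K36M d2 and 118 ± 2.55 CPM in WT d6 (mean ± SD, n = 2 each), with 1.35 ± 0.17 (adjusted p = 5.83e-07 by edgeR). Vcan, the proteoglycan versican, averaged 502 ± 54.7 CPM in K36M d2 and 196 ± 10.6 CPM in WT d6, with 1.35 ± 0.22 (adjusted p = 4.42e-05 by edgeR). Both genes had a higher mean in WT d2 than in K36M d2, at 467 CPM for Col3a1 and 676 CPM for Vcan. Compared with WT d2, the matrix list had 5 members higher and 18 lower in K36M d2. Pdgfrb, a growth factor receptor of mesenchymal cells, averaged 2.86 ± 0.0549 CPM in K36M d2 and 22.9 ± 0.317 CPM in WT d6, with -3.0 ± 0.21 (adjusted p = 7.38e-11 by edgeR). Fn1, fibronectin, averaged 526 ± 40.6 CPM in K36M d2 and 1460.4 ± 59.2 CPM in WT d6, with -1.47 ± 0.26 (adjusted p = 0.00011 by edgeR). Postn and Tnc, matrix proteins, were chosen for a large fall between WT d0 and WT d6 and an interval within 2-fold, so their likeness is not a result. Postn had 9.80 and 11.4 CPM in K36M d2, against 9.01 and 9.29 CPM in WT d6. Tnc had 125 and 135 CPM in K36M d2, against 105 and 105 CPM in WT d6. Neither passed (adjusted p = 0.364 by edgeR for Postn, adjusted p = 0.123 by edgeR for Tnc).

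Mesenchymal regulators were lower in 9 and higher in 5 of 22 tested members, with a median of -0.20. Among all genes 23.4% were lower and 20.8% higher. Prrx1, a homeobox factor of mesenchyme, had 181 and 189 CPM in K36M d2, against 319 and 348 CPM in WT d6, with a log2 fold change of -0.85 ± 0.14 (adjusted p = 2.2e-05 by edgeR), and Twist1, a driver of the mesenchymal state, had 24.2 and 25.7 CPM in K36M d2, against 40.8 and 42.1 CPM in WT d6, with -0.73 ± 0.13 (adjusted p = 6.99e-05 by edgeR). Foxd1, a forkhead factor of stromal cells, had 5.38 and 4.39 CPM in K36M d2, against 43.3 and 41.7 CPM in WT d6, with -3.11 ± 0.19 (adjusted p = 8.78e-12 by edgeR). K36M d2 was the lower group in all 3, with no overlap, and 75.3% of all tested genes had no overlap. Zeb2 and Snai2, repressors of epithelial genes, did not pass: Zeb2 had 27.1 and 28.1 CPM in K36M d2, against 31.2 and 30.6 CPM in WT d6 (adjusted p = 0.42 by edgeR) and Snai2 had 5.93 and 6.18 CPM in K36M d2, against 5.56 and 5.25 CPM in WT d6 (adjusted p = 0.568 by edgeR). Twist2 went the other way and averaged 14.9 ± 0.733 CPM in K36M d2 and 3.07 ± 0.898 CPM in WT d6, with 2.28 ± 0.16 (adjusted p = 1.46e-10 by edgeR). Its mean in WT d2 was 11.8 CPM. Compared with WT d2, the list of mesenchymal regulators had 0 members higher and 11 lower in K36M d2. Zeb1 held too few counts to be tested. The number of members higher was 2 without K36M d2 replicate 1 and 3 without WT d6 replicate 1.

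Contractile genes were higher in 10 and lower in 2 of 19 tested members, with a median of 0.29. Among all genes 20.8% were higher and 23.4% lower. Myh11, smooth muscle myosin, had 10.9 and 11.3 CPM in K36M d2, against 2.25 and 2.94 CPM in WT d6, with a log2 fold change of 2.10 ± 0.21 (adjusted p = 2.26e-08 by edgeR), and Smtn, smoothelin, had 45.9 and 46.2 CPM in K36M d2, against 12.9 and 12.1 CPM in WT d6, with 1.88 ± 0.13 (adjusted p = 4.23e-11 by edgeR). Cnn1, calponin, had 21.3 and 21.2 CPM in K36M d2, against 7.21 and 8.71 CPM in WT d6, with 1.41 ± 0.17 (adjusted p = 4.35e-07 by edgeR). Both K36M d2 libraries were above both WT d6 libraries in each gene. In WT d2 Myh11 averaged 10.6 ± 0.738 CPM, Smtn 43.1 ± 0.699 CPM and Cnn1 36 ± 0.248 CPM. Acta2, smooth muscle actin, had 668 and 660.0 CPM in K36M d2, against 484 and 496 CPM in WT d6, with 0.44 ± 0.14 (adjusted p = 0.0152 by edgeR), and did not pass with any 1 of the 4 libraries left out (0.42 to 0.46). Tinagl1, a matricellular protein, was lower, with 29.7 and 28.2 CPM in K36M d2, against 105 and 117 CPM in WT d6 and -1.94 ± 0.12 (adjusted p = 8.83e-12 by edgeR). Without WT d6 replicate 2 the number higher was 6. Against WT d2 the list had 0 higher and 12 lower.

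Most genes of the TGF-beta list were lower in K36M d2. Of 20 ligands, receptors and responsive genes 14 were lower and 1 higher in K36M d2, with a median log2 fold change of -0.63. Among ligands Tgfb2 had 9.94 and 9.87 CPM in K36M d2, against 44.8 and 44.3 CPM in WT d6, with -2.17 ± 0.14 (adjusted p = 2.44e-11 by edgeR), and among receptors Tgfbr3, betaglycan, had 2.39 and 2.06 CPM in K36M d2, against 7.81 and 8.37 CPM in WT d6, with -1.85 ± 0.25 (adjusted p = 2.35e-06 by edgeR). Thbs1, thrombospondin, an activator and a responsive gene, had 516 and 545 CPM in K36M d2, against 3644 and 3754 CPM in WT d6, with -2.80 ± 0.18 (adjusted p = 1.84e-11 by edgeR). The groups did not overlap in any of these, as was the case for 75.3% of all tested genes. Ltbp2, a latent TGF-beta binding protein by family, had 20.4 and 20.8 CPM in K36M d2, against 191 and 171 CPM in WT d6, with -3.14 ± 0.19 (adjusted p = 9.48e-12 by edgeR). Tgfb1 and Tgfbr1 did not pass (adjusted p = 0.46 by edgeR for Tgfb1, adjusted p = 0.72 by edgeR for Tgfbr1). Skil, which codes for the inhibitor SnoN, was the member that was higher, with 0.55 ± 0.22 (adjusted p = 0.0454 by edgeR). WT d2 averaged 3407 ± 64.2 CPM for Thbs1 and 20.8 ± 0.675 CPM for Tgfb2. The summed level of the list was 1746 to 1864 CPM in K36M d2 and 5530.4 to 5706 CPM in WT d6, and Thbs1 alone, with means of 531 ± 20.5 CPM in K36M d2 and 3699 ± 78.3 CPM in WT d6, made up most of that gap.

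Hox genes, which record position along the body axis, were lower in 19 and higher in 0 of 27 tested members, with a median of -1.06. Hoxa3 had 2.39 and 1.95 CPM in K36M d2, against 12.8 and 11.5 CPM in WT d6, with a log2 fold change of -2.47 ± 0.19 (adjusted p = 3.29e-10 by edgeR), Hoxa5 had 3.27 and 3.63 CPM in K36M d2, against 15.7 and 12.9 CPM in WT d6, with -2.06 ± 0.20 (adjusted p = 2.27e-08 by edgeR), and Hoxb5 had 0.874 and 0.651 CPM in K36M d2, against 4.32 and 3.03 CPM in WT d6, with -2.25 ± 0.37 (adjusted p = 3.52e-05 by edgeR). Both K36M d2 libraries were below both WT d6 libraries in these genes. WT d2 averaged 11.8 ± 0.673 CPM for Hoxa3 and 9.69 ± 0.478 CPM for Hoxa5. Against WT d2 the list had 2 higher and 16 lower. Already at d0 K36M had 2 Hox genes higher and 11 lower than WT. In the change of each group since its own d0, 0 were higher and 11 lower in K36M d2. Hoxa3 overlaps other records in the annotation, and its reads may be split or shared.

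**Figure D4:**
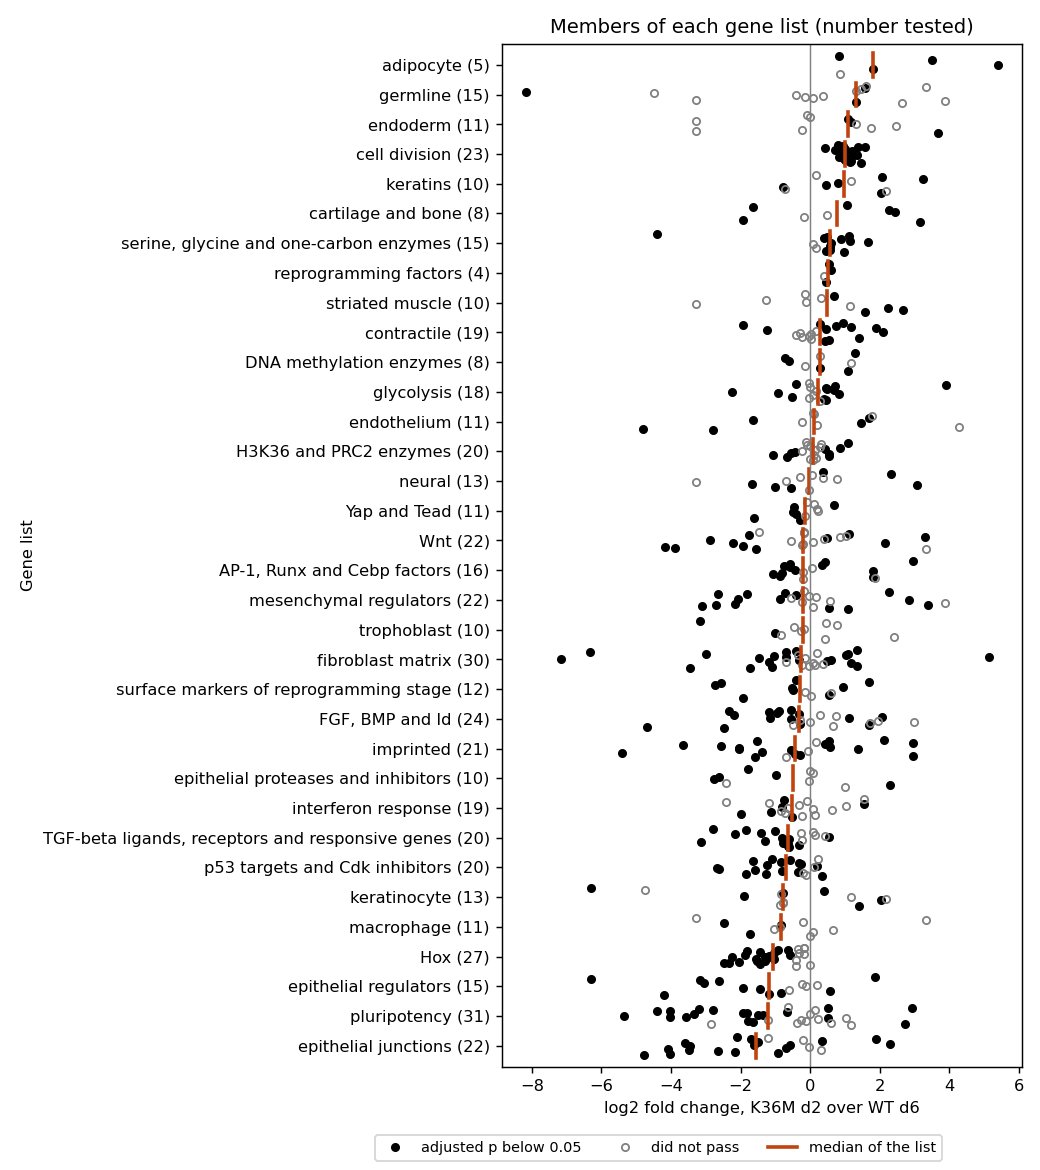
log2 fold change of K36M d2 over WT d6 (horizontal axis) for every tested member of each gene list, ordered by the list median (red bar); filled dots passed at an adjusted p below 0.05, open dots did not. All 23 cell division genes lie above 0, while the medians of the epithelial junction, pluripotency and Hox lists lie at -1.55, -1.22 and -1.06.

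Cell division genes were higher in K36M d2 without exception among the 23 tested members, 23 higher and 0 lower, with a median log2 fold change of 1.0. Rrm2, a subunit of ribonucleotide reductase, had 546 and 558 CPM in K36M d2, against 193 and 179 CPM in WT d6, a log2 fold change of 1.57 ± 0.08 (adjusted p = 7.22e-13 by edgeR). Aurka, a mitotic kinase, had 187 and 168 CPM in K36M d2, against 66 and 61.7 CPM in WT d6, with 1.48 ± 0.09 (adjusted p = 7.57e-12 by edgeR), and Plk1, another mitotic kinase, had 141 and 139.9 CPM in K36M d2, against 60.6 and 46.5 CPM in WT d6, with 1.39 ± 0.10 (adjusted p = 2.47e-10 by edgeR). Both K36M d2 libraries were more than 2-fold above both WT d6 libraries. WT d2 was at a like level, with 546 ± 3.67 CPM for Rrm2, 139 ± 0.623 CPM for Aurka and 126 ± 0.767 CPM for Plk1. Against WT d2, 2 members were higher and 1 lower in K36M d2, and WT d6 was itself lower than WT d2 in 23 and higher in 0. The 2 counts share the K36M d2, WT d2 and WT d6 libraries with the comparison above.

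Promoters of cell division genes are shown with the motifs known from genes of mitosis, the CCAAT box (CCAAT, bound by NF-Y) and the cell cycle homology region (TTTGAA, bound by the MuvB complex). They belong to the members with the largest log2 fold changes among those with TTTGAA within 120 bases before the RefSeq start. Capitals mark either motif or its reverse complement, and the strand of the gene is given with the position in GRCm38.p6.
Cdc20, chr4:118437344-118437463, minus strand: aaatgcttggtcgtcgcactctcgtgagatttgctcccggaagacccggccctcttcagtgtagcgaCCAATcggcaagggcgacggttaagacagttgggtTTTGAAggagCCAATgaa
Kif11, chr19:37376262-37376381, plus strand: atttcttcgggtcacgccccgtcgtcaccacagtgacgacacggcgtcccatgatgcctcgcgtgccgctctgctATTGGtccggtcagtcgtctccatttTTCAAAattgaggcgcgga
Mki67, chr7:135716380-135716499, minus strand: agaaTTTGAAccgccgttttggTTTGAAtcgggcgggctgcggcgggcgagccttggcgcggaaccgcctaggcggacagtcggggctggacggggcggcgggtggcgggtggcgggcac
Cdc20, an activator of the anaphase-promoting complex, averaged 244 ± 7.84 CPM in K36M d2 and 106 ± 16.7 CPM in WT d6, with a log2 fold change of 1.21 ± 0.11 (adjusted p = 5.09e-09 by edgeR). Kif11, a spindle motor, averaged 158 ± 1.61 CPM in K36M d2 and 80.1 ± 0.496 CPM in WT d6, with 0.98 ± 0.17 (adjusted p = 5.13e-05 by edgeR), and Mki67, the Ki-67 antigen, 535 ± 38.7 CPM in K36M d2 and 268 ± 6.80 CPM in WT d6, with 1.0 ± 0.14 (adjusted p = 5.53e-06 by edgeR). Of the 23 members 20 were found in the promoter table, and within 250 bases before the start 18 of these (90%) held CCAAT on either strand, against 34.5% of all promoters, and 7 (35%) held TTTGAA, against 16.3%.

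Inhibitors of the cell cycle and p53 target genes were mostly lower. Of 20 tested members 14 were lower and 2 higher in K36M d2, with a median of -0.70. Cdkn2b, the p15 inhibitor gene, had 16.8 and 15.7 CPM in K36M d2, against 100.2 and 108 CPM in WT d6, with a log2 fold change of -2.68 ± 0.15 (adjusted p = 3.03e-12 by edgeR), and its neighbour Cdkn2a, of p16 and Arf, had 35.8 and 30.7 CPM in K36M d2, against 199 and 207 CPM in WT d6, with -2.61 ± 0.15 (adjusted p = 3.54e-12 by edgeR). Btg2, an antiproliferative p53 target, had 79 and 84.8 CPM in K36M d2, against 292 and 295 CPM in WT d6, with -1.84 ± 0.08 (adjusted p = 7.66e-14 by edgeR). All WT d6 libraries were well above the K36M d2 libraries, and WT d2 averaged 27.9 ± 1.31 CPM, 57.8 ± 3.56 CPM and 96.3 ± 7.31 CPM for the 3 genes in that order. Cdkn1a, the p21 gene, averaged 752 ± 15.8 CPM in K36M d2 and 959 ± 0.745 CPM in WT d6, with -0.35 ± 0.10 (adjusted p = 0.00648 by edgeR). Trp53 itself did not pass (0.24 ± 0.11, adjusted p = 0.0891 by edgeR). Aen and Ei24, the 2 members that were higher, had 0.34 ± 0.08 and 0.19 ± 0.07. Against WT d2 the list had 2 higher and 7 lower.

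Serine, glycine and one-carbon enzymes, which feed nucleotide synthesis, were higher in 12 and lower in 1 of 15 tested members, with a median of 0.57. Mthfd2, a mitochondrial folate enzyme, had 116 and 116 CPM in K36M d2, against 37.9 and 35.4 CPM in WT d6, with a log2 fold change of 1.66 ± 0.08 (adjusted p = 3.06e-13 by edgeR). Phgdh, the first enzyme of serine synthesis, had 199 and 186 CPM in K36M d2, against 86.7 and 88.3 CPM in WT d6, with 1.14 ± 0.09 (adjusted p = 3.89e-10 by edgeR). Shmt2, a mitochondrial serine hydroxymethyltransferase, had 258 and 256 CPM in K36M d2, against 127 and 110.4 CPM in WT d6, with 1.12 ± 0.10 (adjusted p = 7.94e-09 by edgeR). Both K36M d2 libraries were above both WT d6 libraries in the 3 genes, and WT d2 averaged 108 ± 0.812 CPM, 198 ± 3.68 CPM and 226 ± 0.313 CPM in that order. The member that was lower was Tdh, given above.

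Glycolysis genes were higher in 8 and lower in 4 of 18, with a median of 0.22, beside 20.8% higher and 23.4% lower over all genes. Slc16a3, a lactate exporter, had 75.6 and 73.2 CPM in K36M d2, against 5.38 and 4.57 CPM in WT d6, with a log2 fold change of 3.90 ± 0.19 (adjusted p = 2.81e-13 by edgeR), and its groups lay far apart. WT held 43.9 ± 1.86 CPM at d0, 21.8 ± 0.774 CPM at d2, 1.00 ± 0.0648 CPM at d4, 24.1 ± 5.95 CPM at d8 and 106 ± 5.10 CPM in iPSCs, and K36M held 27.9 ± 3.43 CPM at d4. Slc16a3 shares exonic bases with Csnk1d on the other strand, and the strand setting of the counts is not given. Pdk1, a kinase that holds pyruvate back from the mitochondria, went the other way, with 14.1 and 14.7 CPM in K36M d2, against 68.8 and 68.9 CPM in WT d6 and -2.26 ± 0.10 (adjusted p = 9.72e-14 by edgeR). Ldha had 1478 and 1391 CPM in K36M d2, against 814 and 798 CPM in WT d6, with 0.83 ± 0.10 (adjusted p = 4.91e-07 by edgeR), and Ldhb, the other lactate dehydrogenase subunit, had 55.4 and 50.9 CPM in K36M d2, against 101 and 102 CPM in WT d6, with -0.93 ± 0.12 (adjusted p = 1.84e-06 by edgeR).

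Genes of FGF and BMP signalling and the Id genes were more often lower than higher. Of 24 FGF, BMP and Id genes 12 were lower and 3 higher, with a median of -0.31. The shares over all genes were 23.4% lower and 20.8% higher. Bmp4, a ligand, had 0.368 and 0.542 CPM in K36M d2, against 11.7 and 11.7 CPM in WT d6, with a log2 fold change of -4.69 ± 0.34 (adjusted p = 1.76e-10 by edgeR). Id4, an inhibitor of basic helix-loop-helix factors that BMP induces in many cells, had 5.20 and 4.88 CPM in K36M d2, against 24.2 and 26.6 CPM in WT d6, with -2.33 ± 0.13 (adjusted p = 3.62e-12 by edgeR). Bmper, a BMP regulator, was higher, at 14.4 ± 0.691 CPM in K36M d2 and 4.42 ± 0.278 CPM in WT d6, with 1.70 ± 0.18 (adjusted p = 5.43e-08 by edgeR). Grem1, a BMP antagonist, had 9.89 and 10.1 CPM in K36M d2, against 39.5 and 51 CPM in WT d6, with -2.18 ± 0.18 (adjusted p = 1.44e-09 by edgeR). K36M d2 was the lower group without overlap in Bmp4, Id4 and Grem1, and WT d2 averaged 2.18 ± 0.0882 CPM for Bmp4 and 9.38 ± 0.0420 CPM for Id4. Bmp4 and Id4 in K36M d2 lay below all 12 WT libraries of the course. Among receptors named after their values were seen, Fgfr1 averaged 116 ± 5.43 CPM in K36M d2 and 259 ± 28 CPM in WT d6, with -1.16 ± 0.11 (adjusted p = 8.51e-09 by edgeR), and Fgfr2 29.5 ± 1.64 CPM in K36M d2 and 13.6 ± 0.287 CPM in WT d6, with 1.12 ± 0.12 (adjusted p = 1.32e-07 by edgeR).

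Of the Wnt list 7 of 22 tested members were lower and 4 higher, with a median of -0.19, beside 23.4% lower and 20.8% higher over all genes. The secreted inhibitors that passed were Dkk3, Dkk2 and Sfrp1. Dkk3 had 0.828 and 0.814 CPM in K36M d2, against 15.3 and 14.7 CPM in WT d6, with a log2 fold change of -4.19 ± 0.27 (adjusted p = 2.49e-11 by edgeR), Dkk2 had 0.874 and 0.976 CPM in K36M d2, against 12.4 and 15 CPM in WT d6, with -3.88 ± 0.29 (adjusted p = 2.44e-10 by edgeR), and Sfrp1 had 17.4 and 16.2 CPM in K36M d2, against 122 and 123 CPM in WT d6, with -2.86 ± 0.11 (adjusted p = 5.78e-15 by edgeR). In all 3 both K36M d2 libraries were below all 12 WT libraries of the course. The WT d2 means lay closer than those of WT d6, at 1.73 CPM for Dkk3, 1.35 CPM for Dkk2 and 69.1 CPM for Sfrp1. Dkk1 and Sfrp2, other secreted inhibitors, did not pass (adjusted p = 0.253 by edgeR for Dkk1, adjusted p = 0.322 by edgeR for Sfrp2). The ligand Wnt2 was higher in K36M d2 on few counts, with 1.38 and 1.03 CPM in K36M d2, against 0.138 and 0.0963 CPM in WT d6 (adjusted p = 5.12e-05 by edgeR), and the ligand Wnt5a averaged 33.8 ± 0.237 CPM in K36M d2 and 15.6 ± 0.720 CPM in WT d6, with 1.12 ± 0.21 (adjusted p = 0.000132 by edgeR). Axin2, a target gene of the pathway, averaged 2.72 ± 0.318 CPM in K36M d2 and 8.05 ± 0.700 CPM in WT d6, with -1.56 ± 0.19 (adjusted p = 5.26e-07 by edgeR), and Lef1, a nuclear mediator, 12.2 ± 0.113 CPM in K36M d2 and 2.75 ± 0.0569 CPM in WT d6, with 2.14 ± 0.22 (adjusted p = 3.48e-08 by edgeR). Yap and Tead genes were lower in 5 and higher in 1 of 11, with a median of -0.15. Their target Ankrd1 had 16 and 15.1 CPM in K36M d2, against 46 and 49.7 CPM in WT d6, with -1.62 ± 0.16 (adjusted p = 1.64e-08 by edgeR), while Yap1 did not pass (adjusted p = 0.371 by edgeR). The number of Yap and Tead genes lower was 1 without K36M d2 replicate 1 and 2 without WT d6 replicate 1.

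Somatic transcription factors of the AP-1, Runx and Cebp families were lower in 7 and higher in 5 of 16 (3 higher without K36M d2 replicate 2 or WT d6 replicate 1), with a median of -0.20. Fosl1, an AP-1 member, had 20.6 and 21.3 CPM in K36M d2, against 4.87 and 7.03 CPM in WT d6, with a log2 fold change of 1.82 ± 0.18 (adjusted p = 2.47e-08 by edgeR), and Cebpa had 9.89 and 9.98 CPM in K36M d2, against 2.53 and 3.13 CPM in WT d6, with 1.81 ± 0.15 (adjusted p = 8.54e-10 by edgeR). Both were above all 12 WT libraries of the course, though WT d2 was close, at 19.3 ± 0.0219 CPM for Fosl1 and 9.01 ± 0.139 CPM for Cebpa. Cebpd had 44.5 and 37 CPM in K36M d2, against 84.2 and 86.5 CPM in WT d6, with -1.06 ± 0.13 (adjusted p = 3.48e-07 by edgeR). Runx1 averaged 33.3 ± 2.85 CPM in K36M d2 and 49.8 ± 0.901 CPM in WT d6, with -0.58 ± 0.12 (adjusted p = 0.000322 by edgeR). The counts of this list stand beside 23.4% lower and 20.8% higher over all genes.

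Genes for enzymes of H3K36 methylation and of the Polycomb complex PRC2 mostly lay within 2-fold. Of 20 tested members 5 were higher and 4 lower, with a median of 0.09, and 17 had an interval within 2-fold, beside 20.8% higher, 23.4% lower and 56.1% within 2-fold over all genes. Whsc1, the NSD2 methyltransferase gene, had 183 and 184 CPM in K36M d2, against 89.9 and 81 CPM in WT d6, with a log2 fold change of 1.10 ± 0.11 (adjusted p = 2.04e-08 by edgeR). Jarid2, a PRC2 cofactor, had 30.8 and 31.1 CPM in K36M d2, against 70.5 and 59.7 CPM in WT d6, with -1.07 ± 0.10 (adjusted p = 5.53e-09 by edgeR). Neither pair of libraries overlapped, and WT d2 averaged 191 ± 1.38 CPM and 25.9 ± 0.412 CPM. Setd2, the methyltransferase of transcribed genes, did not pass (0.28 ± 0.16, adjusted p = 0.169 by edgeR), and Nsd1 averaged 273 ± 7.51 CPM in K36M d2 and 204 ± 9.68 CPM in WT d6, with 0.42 ± 0.14 (adjusted p = 0.0212 by edgeR). Among 8 DNA methylation genes 3 were higher and 2 lower. The maintenance genes Uhrf1 and Dnmt1 were higher, with 274 and 265 CPM in K36M d2, against 122 and 97.7 CPM in WT d6 for Uhrf1, a log2 fold change of 1.30 ± 0.11 (adjusted p = 2.89e-09 by edgeR). Dnmt1 had 350.0 and 356 CPM in K36M d2, against 184 and 149.6 CPM in WT d6, with 1.08 ± 0.10 (adjusted p = 3.84e-09 by edgeR). Means in WT d2 were 206 CPM for Uhrf1 and 322 CPM for Dnmt1, closer to K36M d2 than WT d6 was.

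Imprinted genes, expressed from a single parental copy, were lower in 11 and higher in 7 of 21, with a median of -0.42. Among all genes 23.4% were lower and 20.8% higher. H19, a maternally expressed RNA, had 10.2 and 9.17 CPM in K36M d2, against 415 and 413 CPM in WT d6, a log2 fold change of -5.42 ± 0.37 (adjusted p = 1.05e-09 by edgeR), and Peg10, a paternally expressed gene derived from a retrotransposon, had 36.5 and 33.8 CPM in K36M d2, against 477 and 410.1 CPM in WT d6, with -3.66 ± 0.13 (adjusted p = 8.64e-16 by edgeR). In both the K36M d2 libraries were far below the WT d6 libraries, and WT d2 averaged 21 ± 0.835 CPM for H19 and 45.4 ± 0.766 CPM for Peg10. Meg3 averaged 51.1 ± 3.58 CPM in K36M d2 and 209 ± 25 CPM in WT d6, with -2.03 ± 0.24 (adjusted p = 6.3e-07 by edgeR), and Rian, from the same cluster, 73.4 ± 1.15 CPM in K36M d2 and 213 ± 17.6 CPM in WT d6, with -1.54 ± 0.11 (adjusted p = 1.89e-10 by edgeR). Dlk1, a paternally expressed gene of that cluster, went the other way, with 11 and 10.1 CPM in K36M d2, against 1.61 and 1.11 CPM in WT d6 and 2.96 ± 0.25 (adjusted p = 1.39e-09 by edgeR). H19 holds the record of Mir675 on the same strand.

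Many genes stood outside the range of the WT libraries of the course, which leaves out WT fibroblasts without OKSM. In 2149 of 16932 tested genes (12.7%) both K36M d2 libraries lay beyond all 12 WT libraries of d0, d2, d4, d6, d8 and iPSC. Of these, 956 (5.65%) were above all of them and higher than WT d6 by the edgeR test, and 852 (5.03%) were below and lower. Of the course genes, 74 of the 956 and 37 of the 852 rise along the WT course and 56 and 102 fall, and 826 and 713 were other genes. The genes that follow were chosen for the widest gap to the nearest WT library, and their gaps are a description.

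Above the WT range, Neurog2, a neurogenic transcription factor, had 30.4 and 33.8 CPM in K36M d2, against 0 to 4.24 CPM over the 12 WT libraries. Robo3, an axon guidance receptor, had 14 and 12.1 CPM in K36M d2, against 0.268 to 1.74 CPM, and Bsn, a presynaptic scaffold, had 10.3 and 9.27 CPM in K36M d2, against 0.255 to 1.55 CPM. These 3 genes have roles in neurons. Naalad2, a peptidase, had 18.3 and 22.8 CPM in K36M d2, against 0.430 to 2.45 CPM. Slfn3, of the Schlafen family, had 8.00 and 8.19 CPM in K36M d2, against 0.138 to 1.28 CPM. Snx20, a sorting nexin, had 6.49 and 6.78 CPM in K36M d2, against 0.0501 to 0.752 CPM. Ces2e, a carboxylesterase, and Idi2, an isomerase of isoprenoid synthesis, completed the set, with 15.3 and 14 CPM in K36M d2 and 6.44 and 6.62 CPM in K36M d2 against 0.10 to 1.25 CPM and 0 to 0.531 CPM in WT. Neurog2 was back at 2.39 ± 0.520 CPM in K36M d4 and Idi2 at 0.726 ± 0.296 CPM, while Robo3 stood at 19.2 ± 1.57 CPM and Naalad2 at 22.5 ± 0.536 CPM. Naalad2 was also high in K36M fibroblasts without OKSM, at 26.3 ± 0.628 CPM, against 1.64 ± 0.0978 CPM in WT without OKSM. Slfn3, Ces2e and Idi2 have close relatives whose reads may be shared.

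Below the WT range, Dapk3, a kinase of cell death and contraction, had 2.44 and 2.44 CPM in K36M d2, against 22.5 to 49.1 CPM over the 12 WT libraries. Cxcl12, a chemokine of stromal cells, had 0.276 and 0.542 CPM in K36M d2, against 4.21 to 936 CPM. Pappa, a protease that frees insulin-like growth factors, had 1.56 and 1.95 CPM in K36M d2, against 9.02 to 177 CPM, and Prdm1, the repressor Blimp1, had 0.322 and 0.380 CPM in K36M d2, against 1.43 to 23.4 CPM. Snapc5, a subunit of a small nuclear RNA transcription complex, had 3.91 and 2.87 CPM in K36M d2, against 12.4 to 18.9 CPM, and Hebp1, a heme-binding protein, had 1.52 and 1.03 CPM in K36M d2, against 4.95 to 21.5 CPM; Bmp4, of the same set, is given above. In fibroblasts without OKSM Dapk3 averaged 5.06 ± 0.145 CPM in K36M and 42.1 ± 0.512 CPM in WT, and Snapc5 5.33 ± 1.01 CPM in K36M and 18.7 ± 0.128 CPM in WT. At d0 Dapk3 averaged 29.7 ± 0.973 CPM in K36M and 45.3 ± 5.36 CPM in WT.

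**Figure D5:**
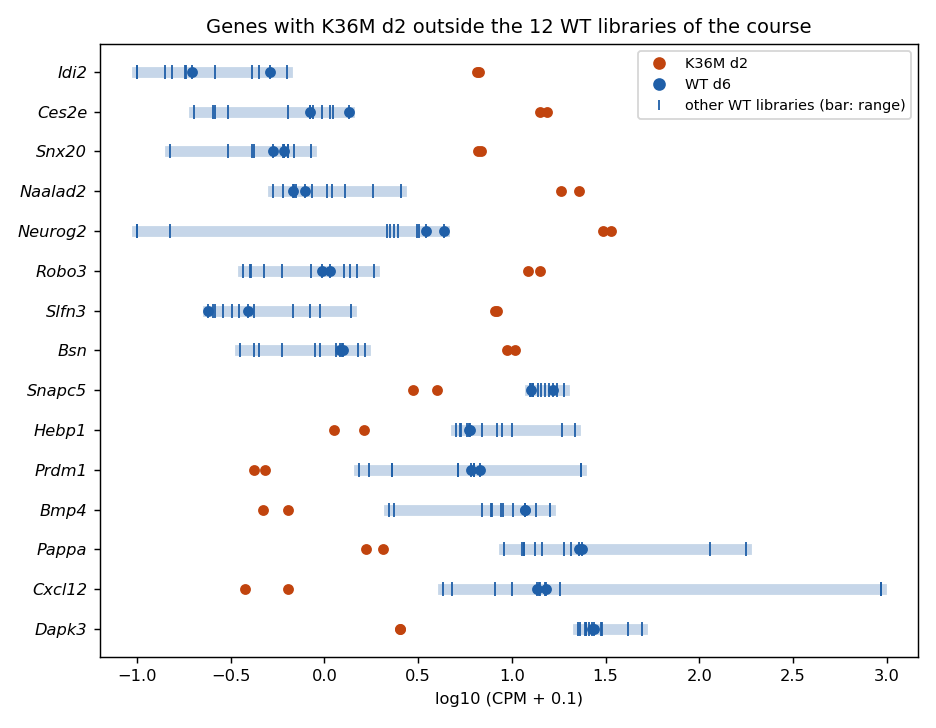
Level of named genes as log10 (CPM + 0.1) (horizontal axis), with K36M d2 libraries in red, WT d6 libraries as blue dots, the other WT libraries of the course as ticks and their range as a bar. The upper 8 genes have both K36M d2 libraries above the whole WT range and the lower 7 genes, from Snapc5 down, below it.

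The largest differences included further genes without a place in the lists. Inpp5d, the phosphatase SHIP1 of blood cells, had 65.5 and 62.6 CPM in K36M d2, against 2.76 and 2.84 CPM in WT d6, with a log2 fold change of 4.52 ± 0.12 (adjusted p = 9.7e-18 by edgeR); it averaged 140.1 ± 5.18 CPM in WT iPSCs. Chrna1, a muscle acetylcholine receptor subunit, had 10.3 and 9.38 CPM in K36M d2, against 0.276 and 0.241 CPM in WT d6, with 5.22 ± 0.32 (adjusted p = 1e-11 by edgeR). In each the K36M d2 libraries were far above the WT d6 libraries. Gpc3, a glypican, and Tnfrsf26 were also higher, with 4.30 ± 0.34 and 4.78 ± 0.27.

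On the lower side Cp, ceruloplasmin, had 0.552 and 0.868 CPM in K36M d2, against 30.6 and 34.1 CPM in WT d6, with a log2 fold change of -5.52 ± 0.27 (adjusted p = 2.92e-13 by edgeR), and Mgp, matrix Gla protein, had 5.84 and 6.40 CPM in K36M d2, against 316 and 353 CPM in WT d6, with -5.77 ± 0.35 (adjusted p = 1.03e-10 by edgeR). Trh, thyrotropin-releasing hormone, had 2.58 and 1.19 CPM in K36M d2, against 67.5 and 72.3 CPM in WT d6, with -5.18 ± 0.18 (adjusted p = 3.06e-15 by edgeR), and Il1rn, which blocks a receptor of interleukin signals, had 1.15 and 1.14 CPM in K36M d2, against 43.3 and 50.6 CPM in WT d6, with -5.35 ± 0.17 (adjusted p = 3.23e-16 by edgeR). K36M d2 was low and WT d6 high in every library. The next stage of K36M did not treat them alike: Trh averaged 169 ± 11.9 CPM in K36M d4, and Il1rn 0.337 ± 0.0111 CPM. Kcnk3 and Clca1, of ion transport, completed the set, with -5.34 ± 0.36 and -4.80 ± 0.29.

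Genes that are high or low in WT mainly between the end points were described apart. Of 287 genes at least 4-fold higher in the mean of WT d2, d4 and d8 than in both WT d0 and WT iPSC, 154 were lower and 46 higher in K36M d2 than in WT d6, 69.7% in all, with a median log2 fold change of -0.64; over all tested genes 23.4% were lower and 20.8% higher. Of 219 genes that dip in WT in the same sense, 49 were higher and 39 lower, 40.2% in all, with a median of 0.19, against 44.2% of all genes. The choice used the WT stages on either side of d6 and no K36M library, so WT d6 tends to be high or low in these genes by selection and nothing is read from the counts. Besides Prelp and Il1rn, the lower ones of both kinds included Gdpd2, a phosphodiesterase, with 0.322 and 0.217 CPM in K36M d2, against 8.00 and 6.88 CPM in WT d6 and -4.74 ± 0.41 (adjusted p = 4.22e-09 by edgeR). H19, also lower, dips in WT, with means of 701 CPM at d0, 21.0 CPM at d2, 699 CPM at d8 and 548 CPM in iPSCs. In WT d6 it was already back at 414 CPM. Among the higher ones B3gnt5, a glycosyltransferase of glycolipids, had 7.73 and 8.68 CPM in K36M d2, against 0.459 and 1.01 CPM in WT d6, with 3.48 ± 0.28 (adjusted p = 1.13e-09 by edgeR), and Mgam, an intestinal maltase, had 9.98 and 9.11 CPM in K36M d2, against 1.19 and 0.963 CPM in WT d6, with 3.14 ± 0.23 (adjusted p = 2.24e-10 by edgeR).

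Some genes that had moved far in WT by d6 lay close in K36M at d2. They were chosen for an interval within 2-fold, so their likeness is not a result. Eef1a2, an elongation factor of muscle and nerve, had 31.5 and 30.1 CPM in K36M d2, against 27 and 26.6 CPM in WT d6, and Fgfbp1, which frees fibroblast growth factors from the matrix, had 104 and 95.8 CPM in K36M d2, against 139.7 and 153 CPM in WT d6. Fgfbp1 passed, with -0.55 ± 0.16 (adjusted p = 0.00674 by edgeR), but not without K36M d2 replicate 2 (-0.49) or WT d6 replicate 2 (-0.48). Lmod1, leiomodin of smooth muscle, had 6.44 and 6.83 CPM in K36M d2, against 8.18 and 7.99 CPM in WT d6. For comparison Eef1a2 was at 0 CPM in both WT d0 libraries.

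The groups began from fibroblasts that already differed, so the change of each since its own d0 was also set against the other. It differed in 4869 of 16932 genes (28.8%), with 2246 (13.3%) higher and 2623 (15.5%) lower in K36M d2. H19 averaged 2541 ± 24.4 CPM in K36M d0 and 701 ± 30.0 CPM in WT d0, and its change since d0 differed by -7.28 ± 0.48 (adjusted p = 2.18e-09 by edgeR). For Prelp the means were 8.20 ± 0.654 CPM in K36M d0 and 1.72 ± 0.382 CPM in WT d0, and the difference was -8.59 ± 0.24 (adjusted p = 8.33e-17 by edgeR). For Inpp5d it was 5.12 ± 0.22 (adjusted p = 2.78e-13 by edgeR). Egfl6, a secreted matrix protein, had 0.874 and 0.651 CPM in K36M d2, against 19.4 and 19.9 CPM in WT d6, and Tal1, a blood and endothelial factor, had 13.3 and 13.4 CPM in K36M d2, against 2.34 and 2.45 CPM in WT d6. Both were near 0 CPM in WT d0, so no size of their change is given.

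Comparisons of K36M with WT that share no library with this pair were set beside it. At d0 2694 genes (15.9%) differed, and 1111 of them differed in the same direction between K36M d2 and WT d6, which is 14.9% of the 7479 genes of the pair and 41.2% of the d0 genes, while 533 differed in the opposite direction. In fibroblasts without OKSM 5920 genes (35.0%) differed, 1640 in the same direction (21.9% and 27.7%) and 1514 in the opposite one. In iPSCs 211 genes (1.25%) differed, 85 in the same direction (1.14% and 40.3%) and 48 in the opposite one.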

How the data were processed

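Members and gene lists were chosen with earlier results of these data known. The authors deposited raw counts, 1 whole number per gene and library. STAR 2.5.0, HTSeq 0.11.2, edgeR and mm9 are named, per the submitters' processing notes. Strand setting, annotation and treatment of multiply matching reads were not stated there, so overlapping, antisense and near-identical genes are uncertain. GENCODE vM1 holds 37205 of the 37620 gene IDs and gives the mm9 coordinates; promoters are RefSeq's on GRCm38.p6. The 37 mitochondrial genes hold 0 counts.

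All 14 groups entered 1 quasi-likelihood fit with 14 residual degrees of freedom (edgeR 4.0.16, limma 3.58.1, R 4.3.3) after TMM scaling and filterByExpr (minimum count 10, total 15). Tests were two-sided, with Benjamini-Hochberg adjustment over 16932 genes at 0.05, and ± beside a log2 fold change is its standard error. The score used log2 CPM with a prior count of 2. Of 561 listed symbols in 34 lists, 7 were not found and 22 held too few counts. Named genes are the largest changes at 5 CPM or more without overlap, the widest gaps to WT, up to 4 per list, genes within 2-fold that moved far in WT, genes transient in WT and a fixed set; a few are not reported here. Alternatives were RLE scaling, other filters, fewer libraries, DESeq2 1.42.0, a replicate block, other WT days and score settings. The scripts were tested on simulated data with known changes.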

Additional observations from a re-analysis of the deposited data

Results flagged for a closer look

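The change since d0 differed between the genotypes in 4869 of 16932 genes (28.8%), by the edgeR test of the difference between K36M d2 minus K36M d0 and WT d6 minus WT d0. The days compared with d0 are not the same in the 2 genotypes, so genotype and day cannot be told apart here.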

How the results depend on the processing

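Against 7479 genes, the number that differed between K36M d2 and WT d6 was 7493 with RLE scaling, 7502 with no filter, 7380 with a filter of 1 CPM in 2 libraries, 9243 with only the 4 libraries in the fit, 7444 without the noOKSM libraries, 7312 with DESeq2 and 5825 to 5997 with 1 of the 4 libraries left out. Without the K36M d6 libraries, an alternative added after seeing the data, it was 8708. The counts over all genes stayed within 1.5 times of their values, 1559 to 1583 for genes outside all WT libraries and 3727 to 4035 for the change since own d0 with 1 library left out. Counts in some lists moved more, as given beside them. A library left alone in its group is assumed to vary like the others. At 4 libraries the change since d0 has no value.

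Same-numbered libraries of K36M d2 and WT d6 did not deviate together (correlation 0.0017). With 2 libraries a group this cannot tell whether they share more than a number. With a replicate block 7530 genes differed.

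The summed score gap of 1.85 was 3.05 with 2-fold course genes and 0.720 as a median over genes, and that on fallen genes was 8.89 and 5.20 under the same 2 settings; the cause was not tested. With 1 library left out the summed gap ran from 1.00 to 2.70.

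With WT d4 in place of WT d6 the balance of the pluripotency list turned to 12 higher and 3 lower, that of the junction list to 8 and 5, of the epithelial regulators to 5 and 4, and of the matrix list to 11 and 8, while with WT d8 the keratins turned to 0 and 5. With WT d8 in place of WT d6 the sign turned for Pecam1 (-2.16), Itgam (0.36), Krt20 (-0.33), Krt14 (-0.83), Krt6a (-0.69) and Fabp4 (-0.19). With WT d4 it turned for Ngfr (0.75), Pparg (-0.12), Btn1a1 (-0.42), Cldn7 (0.83), Tfap2c (0.037), Thy1 (0.14), Tdgf1 (0.60), Neurod1 (1.05), Tet1 (0.99), Fgf4 (0.31) and Fut9 (0.86).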

Other observations

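Germline and interferon genes were also read, beside 20.8% higher and 23.4% lower over all genes. Of 15 germline genes 2 were higher and 1 lower in K36M d2, and the median log2 fold change was 1.31 over genes of low level. Sycp1, a protein of the meiotic chromosome axis, had no count in either K36M d2 library and 1.06 and 2.07 CPM in WT d6, and WT d2 averaged 1.15 ± 0.0658 CPM (adjusted p = 2.17e-06 by edgeR). Already at d0 Sycp1 averaged 0 CPM in K36M and 0.498 CPM in WT. Tdrd1, of the piRNA pathway, had 4.00 and 3.20 CPM in K36M d2, against 1.06 and 1.35 CPM in WT d6, with 1.59 ± 0.23 (adjusted p = 5.8e-06 by edgeR). Of 19 interferon response genes 5 were lower and 1 higher, with a median of -0.53. Ddx58, the RNA sensor RIG-I, had 16.1 and 15.3 CPM in K36M d2, against 59.5 and 64.1 CPM in WT d6, with -1.98 ± 0.11 (adjusted p = 4.49e-12 by edgeR).

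Markers of other cell types were read as well, and their part in the results was not tested. Of 5 adipocyte genes 4 were higher (2 without WT d6 replicate 1) and 0 lower in K36M d2. Lpl, lipoprotein lipase, had 212 and 215 CPM in K36M d2, against 17.6 and 20.2 CPM in WT d6, with a log2 fold change of 3.50 ± 0.11 (adjusted p = 3.84e-16 by edgeR), and WT d2 averaged 195 ± 1.66 CPM; Adipoq and Plin1, which define fat cells, held too few counts to be tested. Of 10 striated muscle genes 4 were higher (2 without K36M d2 replicate 2 or either WT d6 library) and 0 lower, and Des, desmin, had 7.91 and 7.65 CPM in K36M d2, against 1.84 and 1.44 CPM in WT d6, with 2.24 ± 0.22 (adjusted p = 1.63e-08 by edgeR). Of 13 neural genes 3 were higher and 3 lower, shares near those of all genes (20.8% and 23.4%). Tubb3, a neuronal tubulin, had 47.2 and 49.5 CPM in K36M d2, against 10.1 and 9.05 CPM in WT d6, with 2.33 ± 0.10 (adjusted p = 2.79e-14 by edgeR), and Neurog2, given above, was also higher. Ngfr, a neurotrophin receptor, was lower, with -1.67 ± 0.14 (adjusted p = 9.99e-10 by edgeR), as were Neurod1, a neuronal factor (-1.0 ± 0.33), and Nes, nestin (-0.56 ± 0.10). The counts of higher and lower members were 3 and 0 of 11 for endoderm, 0 and 2 of 10 for trophoblast, 3 and 3 of 13 for keratinocytes, 0 and 3 of 11 for macrophages, 2 and 3 of 11 for endothelium, and 4 and 2 of 8 for cartilage and bone. Summed levels were 11.1 to 11.2 CPM in K36M d2 and 20.9 to 24.4 CPM in WT d6 for the macrophage list and 159.6 to 166 CPM in K36M d2 and 146 to 155 CPM in WT d6 for the endothelial list. Cd68 and Itgam made up most of the macrophage sum, with means of 8.28 and 10.2 CPM in WT d6. Csf1r, of the same list, averaged 0.292 CPM in K36M d2 and 0.280 CPM in WT d6. Tek made up most of the endothelial sum, with means of 99.7 CPM in K36M d2 and 92.7 CPM in WT d6. Tie1, of that list, averaged 0.0542 CPM in K36M d2 and 0.0481 CPM in WT d6.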
